A study of Mus musculus with 4 samples.

Results

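Fibrillins, latent TGF-beta binding proteins and hemicentins are large secreted proteins of the extracellular matrix, and 8 genes encode the members measured here: Fbn1, Fbn2, Ltbp1, Ltbp2, Ltbp3, Ltbp4, Hmcn1 and Hmcn2. They are 8 of the 55471 gene rows of the count table and were selected by gene name. The selection was made with earlier results of the comparison between the cell fractions known, so the levels of these genes by fraction are given as a description, without p-values, and nothing is read from the number of them that the test over all genes called. RNA came from amacrine cells, a class of mostly inhibitory retinal interneuron, sorted from dissociated retinas of C57BL6 mice at postnatal days 6 to 7. All animals carried Gbx2-CreERT2-IRES-EGFP, an allele in which the Gbx2 gene drives an inducible Cre recombinase and the green protein EGFP, together with Ai9, a reporter that makes the red protein tdTomato once Cre has acted. The fractions differ in whether GFP was detected: GFP-negative cells (replicates 2 and 6, written N2 and N6) and GFP-positive cells (replicates 2 and 3, written P2 and P3). The submitters give 750 to 2500 cells per RNA sample and state that each animal gave 1 sample of either fraction. The fractions depend on when and where the Gbx2 locus was active.

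Fibrillins polymerise into microfibrils, the fine extracellular filaments on which elastic fibres are built and which hold growth factors of the TGF-beta and BMP families near the cell surface. Latent TGF-beta binding proteins (LTBPs) resemble fibrillins in their repeated modules. They attach the inactive TGF-beta precursor to the matrix, from which integrins and proteases release the active factor. Hemicentins are long proteins with many immunoglobulin-like modules, known from worm and fish for joining neighbouring basement membranes and anchoring cells to them.

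The 4 libraries held between 41040667 and 44689917 gene counts. Levels are given as CPM, counts scaled to a common library size after TMM scaling (a correction for library composition). Gbx2, the gene behind the sort, stood at 28.7 and 55.5 CPM in the GFP-negative and at 602 and 496 CPM in the GFP-positive libraries. It was thus higher in the libraries labelled GFP-positive. The amacrine gene Pax6 was abundant in all 4 libraries, from 1286 to 2245 CPM, and none of 12 amacrine markers was at 0 in any library. The GABA synthesis gene Gad1 ran from 985 to 1766 CPM in N2 and N6, and from 69.2 to 155 CPM in P2 and P3. Rod photoreceptor RNA was present throughout: 16 rod markers, led by Sag, summed to 10323 and 2786 CPM in N2 and N6, and to 11698 and 19774 CPM in P2 and P3.

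Hmcn1 and Ltbp3 were the most abundant members by mean CPM over the 4 libraries, the first with a large difference between the fractions and the second with nearly equal levels in all 4 libraries, so the stretches just upstream of both genes are shown for comparison. Each is the 250 bases before the RefSeq start of the gene in GRCm38, written 5′ to 3′ on the gene's own strand: chr1:150993436-150993685, minus strand, for Hmcn1 and chr19:5740650-5740899, plus strand, for Ltbp3. Capitals mark matches, on either strand, to 4 short motifs: TAATTA (a core bound by homeodomain proteins), CAGAC (a SMAD box), GGGCGG (a GC box) and CCAAT. The motifs share no letters in these matches.
Hmcn1: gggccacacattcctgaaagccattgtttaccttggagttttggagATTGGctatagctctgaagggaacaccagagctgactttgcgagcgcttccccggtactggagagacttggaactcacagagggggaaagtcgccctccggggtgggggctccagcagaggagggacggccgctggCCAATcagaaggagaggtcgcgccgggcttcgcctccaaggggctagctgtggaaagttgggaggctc
Ltbp3: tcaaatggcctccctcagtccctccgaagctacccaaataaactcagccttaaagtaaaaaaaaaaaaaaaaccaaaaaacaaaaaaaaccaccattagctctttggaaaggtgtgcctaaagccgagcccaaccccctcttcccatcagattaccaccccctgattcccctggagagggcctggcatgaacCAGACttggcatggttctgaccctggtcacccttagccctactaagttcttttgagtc

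The Hmcn1 stretch held 2 CCAAT matches, a motif found in 33.9% of 32851 RefSeq windows of this length, and none of the other motifs. The Ltbp3 stretch held 1 SMAD box, found in 42.2% of windows. GC boxes occur in 32.7% and TAATTA in 4.84% of windows, and neither was in these stretches. Hmcn1 had the richer sequence, at 60.0% G and C with 11 CpG dinucleotides against 47.2% and 2 for Ltbp3, where the median window has 52.4% G and C. RefSeq windows were found for 7 of the 8 members, with 2 for Ltbp1 and 3 for Ltbp4, which have alternative starts. Fbn2 was the member without a window, so nothing is said of its upstream sequence. Among all windows of the 7 members, none held TAATTA. These matches describe the letters of the windows.

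The log2 differences of the fibrillin genes had opposite signs, with a far larger size for Fbn2. Fbn2 (ENSMUSG00000024598, chromosome 18, 58008623 to 58210487, minus strand, GRCm38), the fibrillin best known from embryonic and early postnatal matrix, was low in GFP-negative cells, at 29 counts or 0.693 CPM in N2 and 19 counts or 0.531 CPM in N6. In P2 and P3 it reached 525 and 542 counts, or 11.5 and 11.4 CPM. Both GFP-positive libraries were thus far above both GFP-negative libraries, and the replicates of each fraction lay close together. The mean was 11.4 ± 0.0602 CPM with GFP and 0.612 ± 0.115 CPM without it (SD, n = 2 per fraction here and throughout), an 18.7-fold difference. The lowest GFP-positive library stood 16.4-fold above the highest GFP-negative library, while replicates differed by 1.31-fold and 1.01-fold within the fractions. The log2 difference of the fit, GFP-positive minus GFP-negative, was 4.21 ± 0.69 (standard error). Standard errors of log2 differences were worked back from the test, as the absolute difference divided by the square root of its F statistic. They therefore carry the test's result and depend on its setting.

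Fbn1 (ENSMUSG00000027204, chromosome 2, 125300594 to 125507993, minus strand), the main fibrillin of adult microfibrils and the gene affected in Marfan syndrome, stood at 4.30 and 2.79 CPM in N2 and N6 and at 2.56 and 1.54 CPM in P2 and P3. The GFP-negative values were the higher ones, but N6 and P2 nearly met. The log2 difference was -0.81 ± 0.69, with replicates that differed by 1.54-fold and 1.67-fold. Without P2 it was -1.23, and without P3 it was -0.48. The predicted gene Gm9913 overlaps 2442 exonic bases of Fbn1 on the other strand and had at most 2 counts in a library.

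**Figure D1:**
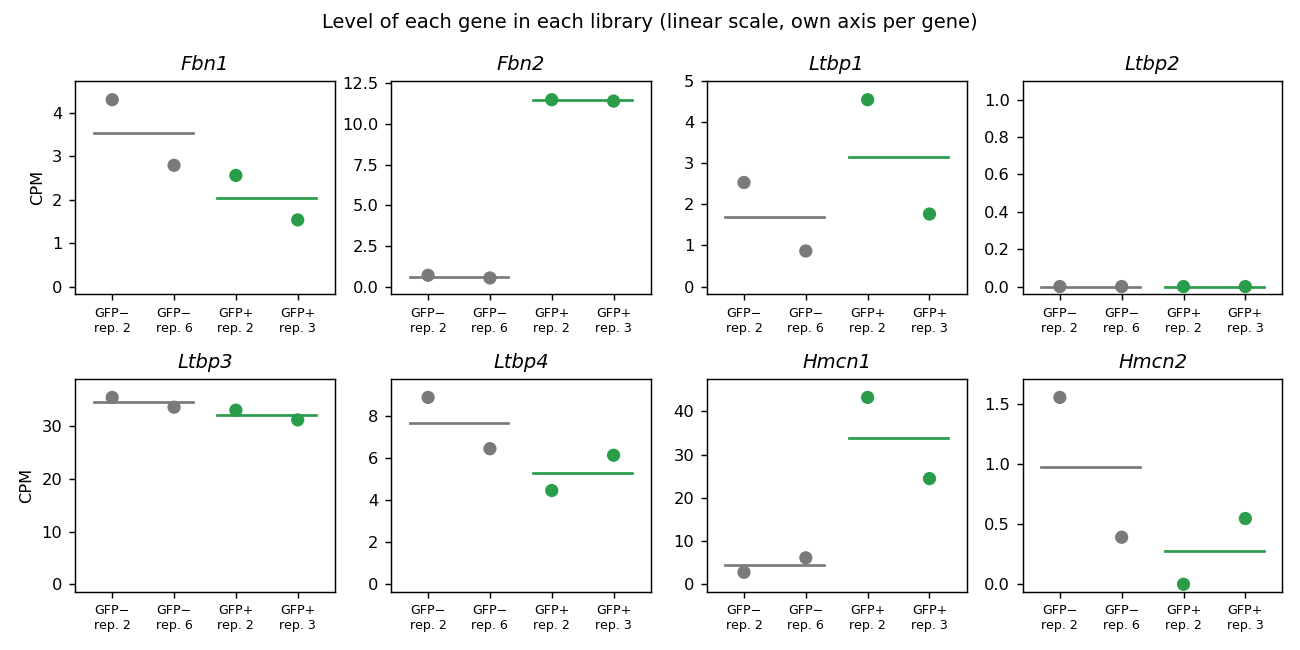
Level of each of the 8 genes in each library, in CPM on a linear axis of its own per gene; points are libraries (grey GFP-negative, green GFP-positive) and lines the mean of the 2 libraries of a fraction. Fbn2 and Hmcn1 are the panels in which both green points lie far above both grey points, Ltbp3 is nearly level from 31.2 to 35.4 CPM, and Ltbp2 is at 0 in all libraries.

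Among the LTBP genes, Ltbp3 was the steady and abundant one. Ltbp3 (ENSMUSG00000024940, chromosome 19, 5740904 to 5758532, plus strand) encodes a carrier of latent TGF-beta known from bone and tooth development. It stood at 35.4 and 33.6 CPM in N2 and N6 and at 33.0 and 31.2 CPM in P2 and P3. The fractions did not overlap, yet they differed by only 1.08-fold, beside 1.06-fold between the replicates of either fraction. The log2 difference was -0.10 ± 0.32, and its sign turned to 0.06 when libraries were scaled by their total alone.

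Ltbp4 (ENSMUSG00000040488, chromosome 7, 27305136 to 27337692, minus strand), an LTBP also needed for elastic fibre assembly, stood at 8.89 and 6.45 CPM in N2 and N6 and at 4.46 and 6.14 CPM in P2 and P3. The groups were separate by a narrow margin, between N6 and P3. The log2 difference was -0.54 ± 0.53.

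Ltbp1 (ENSMUSG00000001870, chromosome 17, 75005568 to 75392512, plus strand), the first described carrier of latent TGF-beta, varied most among the LTBP genes. It stood at 2.53 and 0.866 CPM in N2 and N6 and at 4.55 and 1.77 CPM in P2 and P3. The groups overlapped, since P3 lay below N2, and replicates differed by 2.93-fold and 2.58-fold. The log2 difference was 0.86 ± 0.83, 0.01 without P2 and 1.80 without N2. In both fractions the library numbered 2 was the higher one. Each animal is stated to have given both fractions, but the labels do not say that the number 2 marks the same animal in both.

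Ltbp2 (ENSMUSG00000002020, chromosome 12, 84783212 to 84876532, minus strand), an LTBP that does not bind latent TGF-beta and is known for its part in the ciliary zonule of the eye, had 0 counts in all 4 libraries. A count of 0 allows up to 3 counts, or 0.0631 to 0.0838 CPM depending on the library, for counting error only. Ltbp2 was not tested, since it had no counts.

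Hmcn1 (ENSMUSG00000066842, chromosome 1, 150562524 to 150993435, minus strand), which encodes hemicentin-1, had the most counts of the members over both GFP-positive libraries together, though Ltbp3 had more in P3. It had 116 counts or 2.77 CPM in N2 and 219 counts or 6.12 CPM in N6. P2 and P3 had 1977 and 1163 counts, or 43.2 and 24.5 CPM. Both GFP-positive libraries were above both GFP-negative libraries, by 4.00-fold at the narrowest, and replicates differed by 2.21-fold in the GFP-negative and 1.77-fold in the GFP-positive fraction. The means of 33.8 ± 13.3 and 4.44 ± 2.36 CPM were 7.62-fold apart, and the log2 difference was 2.94 ± 0.53. The antisense gene Gm20631 overlaps 399 exonic bases of Hmcn1 and had at most 1 count in a library.

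Hmcn2 (ENSMUSG00000055632, chromosome 2, 31314415 to 31460738, plus strand), the second hemicentin gene, was near the lower limit of detection. It had 65 and 14 counts in N2 and N6 (1.55 and 0.391 CPM), and 0 and 26 counts in P2 and P3 (0 and 0.547 CPM). The groups overlapped, and the log2 difference of -1.84 ± 1.29 ran from -8.37 without P3 to -0.54 without N2. The first of these values compares with a library at 0 and depends on the small count the fit adds. In P2 the library with the most Hmcn1 thus had no Hmcn2 count, where 0 counts allow up to 0.0656 CPM.

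Of the 8 members, 7 had a count and passed the filter on low counts, and Ltbp2 was the exception. In edgeR's quasi-likelihood test over all 17940 tested genes, 1.1% passed an adjusted p of 0.05 in either direction, 0.234% as higher and 0.87% as lower in GFP-positive cells. Of the 7 tested members, 2 were called higher, Fbn2 and Hmcn1, and none lower. The members were chosen with this comparison known, so nothing is read from that count. Both calls depended on the setting of the test: with the package's default (legacy) quasi-likelihood fit 48 genes were called, and neither Fbn2 nor Hmcn1 was among them. Of 15 alternatives, Fbn2 was called in 7 and Hmcn1 in 5, and neither was called by limma-voom or when any 1 of the 4 libraries was removed. The direction of both genes was the same in all 15. The alternatives refit these same libraries, in which the fraction ranges of both genes were separate. A changed sign was thus hardly possible, and the constant direction adds no support. Fraction ranges were separate for 5 of the 7 tested members, 2 higher and 3 lower, and for 43.8% of all tested genes. The median log2 difference was -0.10 over the 7 tested members and 0.04 over all tested genes. Fewer cells with a transcript and less transcript per cell cannot be told apart in these bulk samples.

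**Figure D2:**
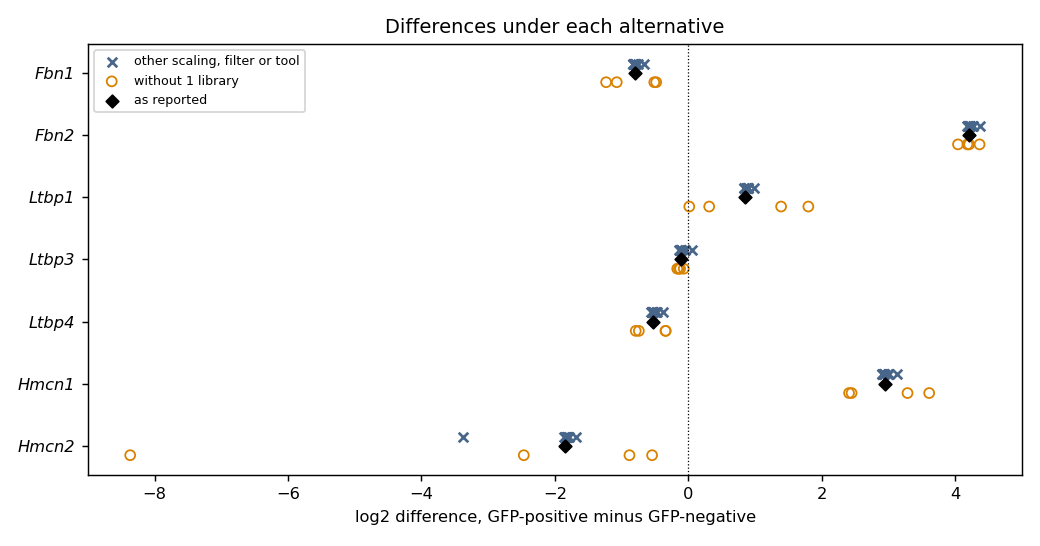
log2 difference between the fractions for the 7 members with counts, as reported (diamonds), under other scaling, filters and tools (crosses) and without 1 library (open circles). Fbn2 stays between 4.04 and 4.37 and Hmcn1 between 2.41 and 3.61, while Hmcn2 spreads from -8.37 to -0.54.

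Levels of different genes are compared here as RPKM, the CPM divided by the length of exon in kilobases, because the exonic length of the members runs from 6463 bases for Ltbp4 to 21191 bases for Hmcn1. In GFP-negative cells Ltbp3 led at 3.80 ± 0.14 RPKM, followed by Ltbp4 at 1.19 ± 0.27. Fbn1 (0.293 ± 0.0880), Hmcn1 (0.210 ± 0.112) and Ltbp1 (0.159 ± 0.110) came next, and each overlapped its neighbour in the library values. Hmcn2 (0.0605 ± 0.0512) and Fbn2 (0.0463 ± 0.0087) overlapped at the bottom of the detected genes, and Hmcn2 also overlapped Ltbp1.

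In GFP-positive cells Ltbp3 again led, at 3.54 ± 0.14 RPKM, and Hmcn1 stood next at 1.60 ± 0.63. Fbn2 (0.866 ± 0.0046) and Ltbp4 (0.820 ± 0.184) followed and overlapped. Ltbp1 (0.295 ± 0.184) and Fbn1 (0.169 ± 0.0597) overlapped below them, and Hmcn2 (0.0170 ± 0.0241) was the lowest detected member. By CPM, which counts a long transcript more often, Hmcn1 exceeded Ltbp3 in P2 and on the fraction mean. By RPKM it was below Ltbp3 in every library.

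**Figure D3:**
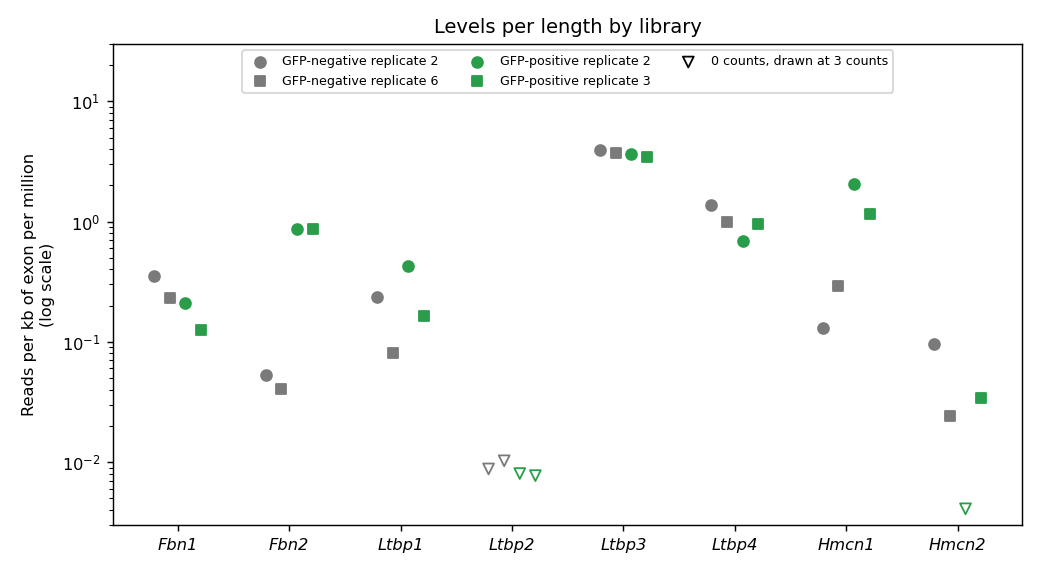
RPKM, the CPM per kilobase of exon, for the 8 genes on a log axis, 1 point per library (grey GFP-negative, green GFP-positive); open triangles are libraries with 0 counts, drawn at the value of 3 counts. Ltbp3 lies between 3.44 and 3.91 in all libraries, and Fbn2 moves from 0.0525 and 0.0402 in the grey to 0.869 and 0.863 in the green points.

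Ratios of counts within a library do not depend on how libraries are scaled. The ratio of Fbn2 to Fbn1 was 0.161 and 0.19 in N2 and N6 and 4.49 and 7.42 in P2 and P3. Fbn1 therefore gave most fibrillin counts in both GFP-negative libraries and Fbn2 in both GFP-positive libraries. After division by exonic length, 12128 bases for Fbn1 and 13215 for Fbn2, the ratios were 0.148, 0.174, 4.12 and 6.81 in the same order. The ratio of Hmcn1 to Ltbp3 was 0.0783 and 0.182 in the GFP-negative libraries and 1.31 and 0.785 in the GFP-positive libraries.

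The proportion of Fbn2 to Hmcn1 varied between libraries. Their ratio, Fbn2 over Hmcn1, was 0.25 and 0.0868 in N2 and N6 and 0.266 and 0.466 in P2 and P3. The fractions were separate by a narrow margin, between N2 and P2. Ltbp3 over Ltbp4 ranged from 3.98 to 7.40, and there the fractions overlapped.

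**Figure D4:**
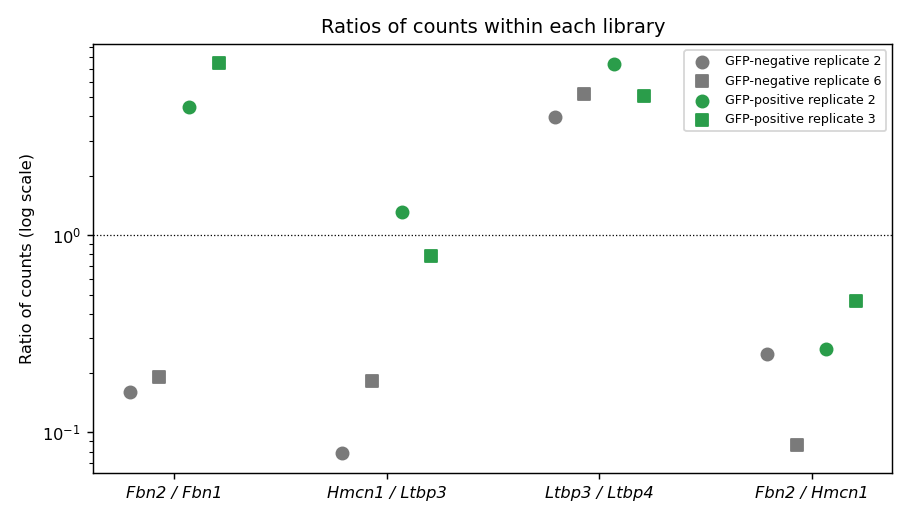
Ratios of counts within each library on a log axis (grey GFP-negative, green GFP-positive; circles replicate 2, squares the other replicate), with a dotted line at equal counts. Fbn2 over Fbn1 lies below the line in both grey libraries (0.161 and 0.19) and above it in both green libraries (4.49 and 7.42), and Fbn2 over Hmcn1 nearly meets between the fractions (0.25 in the highest grey and 0.266 in the lowest green library).

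Vascular cells also make these matrix proteins, so markers of other cell types are given beside Fbn2 and Hmcn1. The 9 endothelial markers summed to 89.9 and 61.1 CPM in N2 and N6 and to 119 and 122 CPM in P2 and P3. The most abundant was Kdr, a receptor for VEGF, at 79.7, 58.6, 118 and 69.3 CPM in the same order, highest in P2. The other 8 summed to 10.3, 2.51, 1.27 and 52.7 CPM, so that they overlapped between the fractions and were highest in P3. Among them Cdh5, Tek, Emcn and Tie1 were at 0 in P2 and at 2.17, 3.97, 1.60 and 9.23 CPM in P3, Cldn5 stood at 0.175 and 10.7 CPM, and Pecam1 at 0.678 and 0.421 CPM. Fbn2 stood at 11.5 and 11.4 CPM and Hmcn1 at 43.2 and 24.5 CPM in these libraries, P2 first.

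The 9 mural cell markers summed to 12.3 and 7.15 CPM in N2 and N6 and to 6.76 and 28.7 CPM in P2 and P3, led by the pericyte gene Rgs5, which was at 0.0656 CPM in P2. Without Rgs5 the other 8 summed to 2.75 and 3.6 against 6.69 and 15.5 CPM, higher in both GFP-positive libraries. Of these, Pdgfrb was at 0 and 0.614 CPM without GFP and at 2.89 and 7.93 CPM with it. Abcc9 was also higher with GFP, at 0 and 0.140 against 0.241 and 2.84 CPM. Kcnj8 was lower, at 0.622 and 0.0559 against 0 and 0 CPM. Cspg4, Tagln and Notch3 overlapped between the fractions, Acta2 had counts in P3 alone, and Anpep had none. The 7 fibroblast markers, led by Pdgfra, overlapped between the fractions, at 27.6 and 5.75 against 7.24 and 16.5 CPM, as did the 6 astrocyte markers, led by Igfbp2, at 40.1 and 22.2 against 13.6 and 29.7 CPM. The part of endothelial, mural or other cells' RNA in the fraction differences of Fbn2 and Hmcn1 was not tested.

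Summed rod, bipolar and horizontal cell markers were higher in both GFP-positive libraries, and summed amacrine markers were lower. The 12 amacrine markers summed to 5070 and 7391 CPM in N2 and N6 and to 4417 and 3352 CPM in P2 and P3. Not all of them were lower. Slc6a9 (54.3 and 31.4 against 85.8 and 74.7 CPM) and Snap25 (1007 and 1120 against 1713 and 1458 CPM) were higher in both GFP-positive libraries. Pax6 and Elavl3 overlapped between the fractions. The 8 bipolar markers summed to 1089 and 435 CPM in N2 and N6 and to 1331 and 1833 CPM in P2 and P3. The 5 horizontal cell markers summed to 139 and 52.1 against 208 and 186 CPM, most of it Prox1, and the other 4 overlapped, at 26.3 and 20.7 against 49.2 and 25.6 CPM. The 8 Muller glia markers summed to 1628 and 1955 against 725 and 879 CPM, most of it Dkk3 in N2 and N6, and the other 7 overlapped, at 620 and 377 against 481 and 748 CPM. Likewise the 8 ganglion cell markers summed to 233 and 272 against 157 and 68.6 CPM, and without Nefl the other 7 overlapped, at 41.9 and 32.2 against 62.0 and 36.1 CPM. Within each fraction, Hmcn1 was higher in the library with fewer rod counts: in N6 (2786 CPM of rod markers) and in P2 (11698 CPM). Fbn2 did not share this order, at 0.693 and 0.531 CPM in N2 and N6 and at 11.5 and 11.4 CPM in P2 and P3. Between the fractions, Hmcn1 and the rod sum were both higher in both GFP-positive libraries. A relation of either gene to rod RNA was not tested, with 2 libraries per fraction.

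The other genes of these pathways were taken from 6 lists of 100 genes in all, 89 of them tested. A single gene passed, Efemp1, or 1.12% of the tested list genes against 1.1% of all tested genes. In edgeR's test, 20 of the 89 tested list genes and 2257 of all 17940 tested genes had an unadjusted p under 0.05. The counts at that threshold given below for each list are to be read beside these numbers. With DESeq2 the lists held 11 called genes, or 11.96% of those tested, against 4.59% of all, and with RLE scaling 3, or 3.37% against 1.56%. Of the list genes, 56 had a positive and 33 a negative log2 difference, with a median of 0.25 against 0.04 over all tested genes.

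Efemp1 (ENSMUSG00000020467, chromosome 11, 28853204 to 28926743), which encodes fibulin-3, a matrix protein of the fibulin family, was lower in GFP-positive cells. It stood at 19.6 and 22.4 CPM in N2 and N6 and at 0.547 and 0.820 CPM in P2 and P3. Both GFP-positive libraries were thus far below both GFP-negative libraries, and the log2 difference was -4.93 ± 0.59 (edgeR adjusted p = 0.0118). The call was lost with the trended dispersion, under which no gene was called (edgeR adjusted p = 0.068), without N6 (edgeR adjusted p = 0.115) and without P3 (edgeR adjusted p = 0.0746).

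Of the 25 tested microfibril partner and elastic fibre genes, Efemp1 was lower and 24 did not pass (7 of the 25 had an unadjusted p under 0.05), with a median log2 difference of 0.56. Mfap2, a glycoprotein of fibrillin microfibrils, averaged 20.1 ± 0.35 CPM in the GFP-negative libraries and 36.3 ± 5.25 CPM in the GFP-positive ones (edgeR adjusted p = 0.347). Mfap4, another microfibril protein, stood at 5.10 ± 2.87 and 9.33 ± 1.5 CPM. Fbln1, which encodes fibulin-1, stood at 2.51 ± 0.84 and 3.66 ± 1.1 CPM, and Fbln2 at 1.57 ± 0.72 and 2.79 ± 1.59 CPM. Lox, the enzyme that crosslinks elastin, was close to 0, at 0.154 ± 0.217 and 1.39 ± 1.49 CPM. Other genes of the list had lower values in GFP-positive cells without passing. Eln, which encodes elastin, stood at 19.6 and 23.9 CPM in N2 and N6 and at 3.74 and 0.105 CPM in P2 and P3 (edgeR adjusted p = 0.127). Adamts17, a secreted metalloprotease gene, averaged 13.9 ± 1.03 and 3.42 ± 3.79 CPM (edgeR adjusted p = 0.32).

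None of 18 tested genes of latent TGF-beta storage and activation passed in edgeR (1 at an unadjusted p under 0.05), and their median log2 difference was 0.11. Of the ligands that LTBPs carry, Tgfb2 was the most abundant, averaging 68.0 ± 9.37 CPM with GFP absent and 96.3 ± 31.7 CPM with GFP present. Tgfb3 stood at 12.6 ± 0.40 and 13.6 ± 2.93 CPM, and Tgfb1 at 1.36 ± 0.14 and 1.41 ± 0.23 CPM. The integrin chains that can release TGF-beta from its latent complex did not pass the test. The one furthest apart was Itgb3, at 3.37 and 2.90 CPM in N2 and N6 and at 0 and 0.168 CPM in P2 and P3 (edgeR adjusted p = 0.0873). Itgav stood at 23.4 ± 5.24 and 13.1 ± 8.90 CPM, and Itgb8 at 6.38 ± 2.43 and 11.0 ± 1.02 CPM.

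None of 13 tested TGF-beta receptor and SMAD genes passed in edgeR either (1 at an unadjusted p under 0.05), with a median of 0.16. Tgfbr1, the type I receptor, stood at 52.1 ± 2.95 and 62.3 ± 2.11 CPM, and the co-receptor Tgfbr3 at 1.39 ± 0.58 and 1.26 ± 0.51 CPM. The type II receptor gene Tgfbr2 was uneven, at 7.08 and 1.37 CPM in N2 and N6 and at 0.0219 and 12.4 CPM in P2 and P3. Its highest library was P3, the one with Tie1 at 9.23 CPM, and the part of endothelial RNA in it was not tested. The signal transducer Smad3 stood at 8.45 ± 6.03 and 10.2 ± 3.57 CPM and the inhibitor Smad7 at 8.87 ± 0.81 and 11.5 ± 0.33 CPM.

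Of 7 tested TGF-beta response genes none passed in edgeR (2 at an unadjusted p under 0.05), with a median of -0.51. None of 6 tested BMP and GDF ligands passed (2 at an unadjusted p under 0.05; median -0.07). Bmp7, which binds fibrillin through its prodomain, averaged 197 ± 116 CPM in the GFP-negative libraries and 56.9 ± 24.8 CPM in the GFP-positive ones (edgeR adjusted p = 0.171). Bmp4 had counts in P2 alone, at 0.962 CPM.

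Of 20 tested basement membrane genes none passed in edgeR (7 at an unadjusted p under 0.05), and the median was 0.62. Agrn, which encodes the proteoglycan agrin, stood at 168 ± 7.74 and 252 ± 57.0 CPM, GFP-negative first. Hspg2, which encodes perlecan, stood at 0.484 ± 0.329 and 1.11 ± 0.83 CPM. The nidogen genes were highest in P3, at 7.21 CPM for Nid1 and 2.99 CPM for Nid2, and Nid2 was at 0 in P2. P3 was also the library with the most Cdh5, Tek, Emcn and Tie1, as given above, and the part of endothelial RNA in the nidogen values was not tested.

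**Figure D5:**
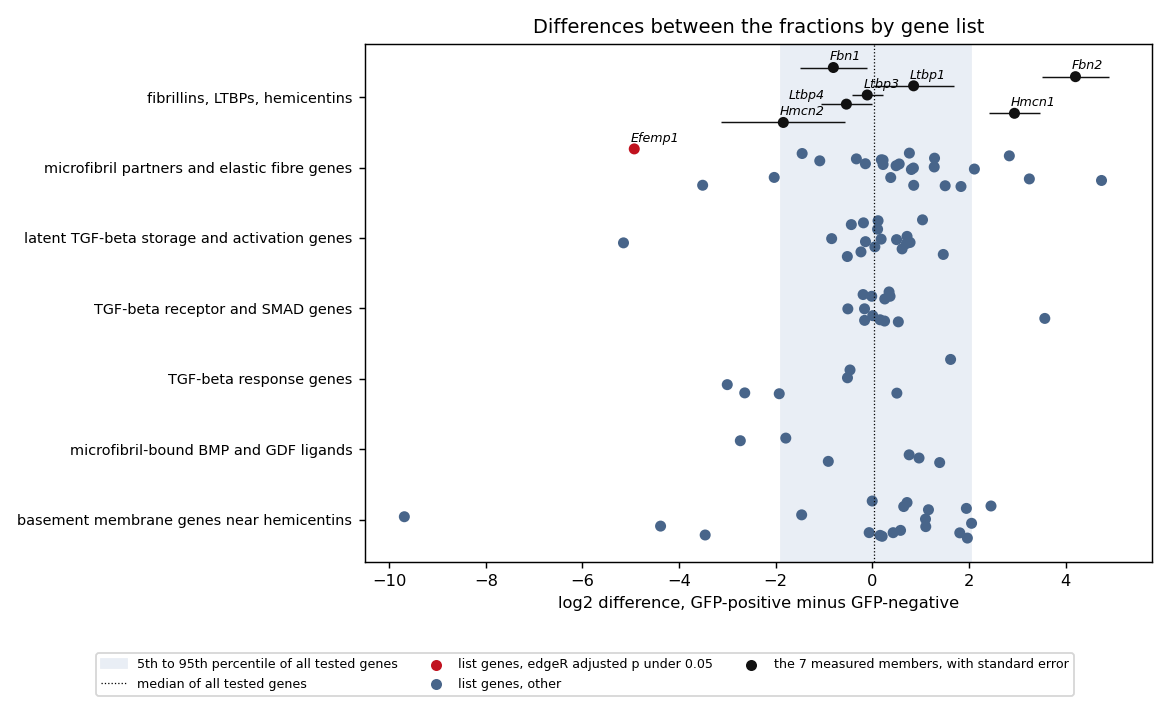
log2 difference (GFP-positive minus GFP-negative) of the tested genes in each list, with the 7 members and their standard errors in the top row; the band spans the 5th to 95th percentile of all tested genes and the dotted line is their median. Fbn2 (4.21) and Hmcn1 (2.94) lie to the right of the band, which ends at 2.04, and Efemp1 (-4.93) is the list gene that passed the test.

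For the member of each family with the highest mean CPM, the tested genes closest in pattern were found by the Euclidean distance of centred log2(CPM + 0.5) over the 4 libraries, among genes of a mean level within 4-fold. With 4 libraries that share a sort, many genes can follow the same pattern, and the distances are a description. Closest to Fbn2 among 4435 genes were Col13a1, a membrane collagen (distance 0.49), Adamts5, an aggrecan-cleaving protease (0.54), and Trim30a (0.56), which belongs to a family of near-identical copies and is uncertain. Col13a1 stood at 3.90 and 1.84 CPM in N2 and N6 and at 33.7 and 33.6 CPM in P2 and P3. Closest to Hmcn1 among 7280 genes were Nkain3 (0.18), Cachd1, a calcium channel-associated protein gene (0.25), and Stum (0.25). Nkain3, whose product interacts with the sodium pump, stood at 9.90, 17.8, 123 and 78.6 CPM in the same order of libraries. Closest to Ltbp3 among 8299 genes were Acbd3, Zdhhc1 and Mthfd2l, at distances of 0.03 to 0.04, and Acbd3 ran from 75.0 to 85.3 CPM.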

How the data were processed

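The authors deposited raw read counts per Ensembl gene for 4 libraries of sorted cells, prepared with a low-input cDNA kit, per the labels' protocols. The submitters' processing notes name STAR 2.7.3a, Trimmomatic, MultiQC and limma, with GRCm38 as build. Counter, annotation and strand setting: not given in the sources used here. A further deposited table was not used.

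Members, lists and tests were chosen with earlier results of these data known. All 55471 rows entered edgeR 4.0.16 (R 4.3.3): filterByExpr (minimum count 10, minimum total 15), TMM, glmQLFit (robust, non-legacy) and glmQLFTest without covariates, with a Benjamini-Hochberg adjusted p under 0.05 as a call. The planned design did not name the legacy option. A first run with the package default, the legacy fit, called 48 genes, neither Fbn2 nor Hmcn1 among them. Legacy without the robust option (49), the common dispersion (132), the trended dispersion (0) and the non-legacy fit (198) were then compared. The non-legacy fit, which calls the most genes of these 5, was kept after those counts were seen, because an earlier analysis of these data had used it. P-values set the difference between the fractions against a spread between libraries that the fit estimates in large part from other genes. They speak of these samples only. The procedure was also run on simulated counts, in which sets of 50 genes were given a known difference. These counts were drawn with the trended dispersion, so no gene had a spread of its own. The changed genes were taken from those with a mean above 1 CPM. It recovered 4% of the genes set 2-fold apart and 46% of those set 4-fold apart. Of the genes set 8-fold apart 82% were recovered, and of those set 16-fold apart 76%. There was 1 false call. A gene that did not pass can therefore still differ between the fractions, above all by 2-fold or 4-fold.

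Lengths and coordinates came from GENCODE M21 (GRCm38), upstream sequences from RefSeq. A floor of 3 counts stood for 0. Named genes were the members, Gbx2, up to 4 called genes per list, a set of list genes named in the design, the 3 nearest genes for the most abundant member of each family, and the most abundant gene of each marker list described; some of these are not reported here. Tie1, Cdh5, Tek, Emcn, Cldn5, Pecam1, Pdgfrb, Gad1, Eln, Adamts17 and Itgb3, and the marker sums without the most abundant gene, were chosen for the text after their values were seen. So were the mural markers named besides Rgs5 and Pdgfrb. Alternatives were other scalings and filters, DESeq2 1.42.0, limma-voom 3.58.1, the other quasi-likelihood settings and leaving out each library.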

Additional observations from a re-analysis of the deposited data

How the results depend on the processing

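The number of genes called was 198 as reported. It was 106 with no filter on low counts, 131 with limma-voom and 859 with DESeq2. Under the quasi-likelihood settings added after seeing the data it was 48 with the legacy fit, 49 with that fit not robust, 132 with the common dispersion and 0 with the trended dispersion, where 1800 genes had an unadjusted p under 0.05. It was 1 to 336 when a library was left out, lowest without GFP-negative replicate 6, and 5 without GFP-positive replicate 3. The number of list genes called, 1 as reported, was 3 with RLE scaling, 2 with upper-quartile scaling, 2 with library size only, 2 with a filter of over 5 CPM in 2 libraries, 11 with DESeq2, 0 with the trended dispersion (18 at an unadjusted p under 0.05) and 0 to 3 when a library was left out. Of 102 log2 differences of members under the alternatives, 89 moved by less than the spread between replicates, 12 moved by more, and 1 changed sign: the log2 difference of Ltbp3 was 0.0592 with library size only. That scaling moved the median of all tested genes from 0.04 to 0.21. The causes were not tested. No paired analysis was made, because the fractions share only replicate number 2 and the labels do not say that it marks the same animal. If it does, N2 and P2 are not independent, and the fit did not allow for that. With 2 libraries per fraction, the folds of Ltbp1 and Hmcn2, whose replicates were uneven, are poorly fixed, and depth limits what can be said of Hmcn2 and Ltbp2.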
